A study of Mus musculus with 4 samples.

Results

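The 10 genes described here encode the killing machinery and the restraints of lymphocytes, and were read in CD8 T cells, CD4 T cells, regulatory T cells and natural killer (NK) cells of the aged mouse kidney. They were chosen by symbol from the 31054 features of the count tables, and all 10 had 1 row: Gzma, Gzmb, Gzmk, Prf1, Nkg7, Fasl, Ifng, Pdcd1, Tox and Lag3. Male C57BL/6 mice, 19 months old when treatment began, had received BPTES or its vehicle DMSO for 1 month, and there were 2 libraries in each group (BPTES 1 and 2, DMSO 1 and 2). BPTES is a small molecule that inhibits glutaminase, the enzyme that turns glutamine into glutamate, and the comparison asks how the aged kidney differs under it. Kidneys were digested with liberase and sorted on CD45, the surface protein of leukocytes, and 20000 CD45-negative with 9000 CD45-positive cells entered each 10x Genomics 3′ library. The labels number the samples but do not say whether each came from its own animal, so p-values measure only the spread between these libraries, which may be technical.

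Cytotoxic lymphocytes kill by emptying granules onto a target cell. Perforin, the product of Prf1, opens the target's membrane, and granzymes (the serine proteases encoded by Gzma, Gzmb and Gzmk) enter and cut proteins inside. Nkg7 encodes a granule membrane protein needed for efficient granule release, Fasl a death ligand that kills through the receptor Fas, and Ifng the cytokine interferon gamma. Pdcd1 encodes the inhibitory receptor PD-1, Lag3 an inhibitory receptor that binds MHC class II, and Tox a nuclear factor that sustains PD-1 and the exhausted state of T cells under chronic stimulation. In old mice, CD8 T cells that carry Gzmk, Pdcd1 and Tox are known to gather in several tissues.

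In the mm10 annotation (GENCODE M21) Gzma lies at chr13:113093825-113100981 and Gzmk at chr13:113171608-113225908, both on the minus strand and 70626 bases apart. Prf1 lies at chr10:61297833-61304680 on the plus strand and Gzmb at chr14:56258838-56262260 on the minus strand. The promoter windows of these 4 genes are printed below because Prf1 was the one gene of the 10 whose level passed the test between the groups, while the 3 granzymes were distributed differently over the cell classes. Each window runs 5′ to 3′ on the gene's strand from 250 bases before to 50 after the RefSeq start (GRCm38.p6), and capitals mark exact matches to motif letters on either strand. For Gzmk this window lies inside the GENCODE span given above and not at its end. The letters searched were GGTGTGA for T-box factors, TGTGGTT for RUNX, TGAGTCA for AP-1, AGGAAG for ETS and GGAAAA for NFAT factors.
Prf1, chr10:61297586-61297885, plus strand: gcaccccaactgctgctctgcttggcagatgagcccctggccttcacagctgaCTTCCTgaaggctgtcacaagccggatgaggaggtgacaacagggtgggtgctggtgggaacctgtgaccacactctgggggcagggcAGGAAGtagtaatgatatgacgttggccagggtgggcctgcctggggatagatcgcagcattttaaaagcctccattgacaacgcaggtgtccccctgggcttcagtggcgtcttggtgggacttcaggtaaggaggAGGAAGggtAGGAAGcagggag
Gzma, chr13:113100932-113101231, minus strand: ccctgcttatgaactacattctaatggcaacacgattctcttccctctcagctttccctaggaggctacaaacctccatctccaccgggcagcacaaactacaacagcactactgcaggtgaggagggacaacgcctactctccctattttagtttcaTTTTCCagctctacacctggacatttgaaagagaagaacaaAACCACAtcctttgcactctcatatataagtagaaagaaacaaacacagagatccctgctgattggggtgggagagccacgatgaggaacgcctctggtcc
Gzmk, chr13:113180916-113181215, minus strand: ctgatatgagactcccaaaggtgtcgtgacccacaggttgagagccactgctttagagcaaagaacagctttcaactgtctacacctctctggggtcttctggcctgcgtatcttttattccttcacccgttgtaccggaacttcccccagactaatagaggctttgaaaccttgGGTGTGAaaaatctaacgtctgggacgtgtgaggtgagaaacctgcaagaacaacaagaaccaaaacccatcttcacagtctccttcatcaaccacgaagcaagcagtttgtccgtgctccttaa
Gzmb, chr14:56262285-56262584, minus strand: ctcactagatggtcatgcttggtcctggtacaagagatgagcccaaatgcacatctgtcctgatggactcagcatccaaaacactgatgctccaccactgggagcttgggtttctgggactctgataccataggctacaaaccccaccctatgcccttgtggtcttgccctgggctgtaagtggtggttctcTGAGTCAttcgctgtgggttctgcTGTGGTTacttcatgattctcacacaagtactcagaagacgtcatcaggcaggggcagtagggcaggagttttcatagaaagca
The Prf1 window held 4 matches to the ETS letters, which 35.4% of all 32851 windows of 300 bases hold at least once. The Gzma window held 1 RUNX and 1 NFAT match, the Gzmk window 1 T-box match and the Gzmb window 1 RUNX and 1 AP-1 match. Among all windows 5.27% hold the RUNX letters, 23.4% the NFAT letters, 3.98% the T-box letters and 5.20% the AP-1 letters. Of the other members, Nkg7 (1 T-box and 1 ETS match), Fasl (1 ETS and 1 NFAT), Pdcd1 (2 ETS) and Ifng (0 matches) had a window, and Tox and Lag3 were not in the sequence table. A match is a description of the letters and not a measured site.

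Of 46738 cells kept, 2907 fell into the 4 lymphocyte classes. The classes were gated on Cd3d, Cd3e, Cd3g, Cd8a, Cd8b1, Cd4, Foxp3, Ncr1 and Klrb1c inside clusters named T, gamma delta T, NK or innate lymphoid by their markers. The cluster named gamma delta T gave 58 of the CD8 T cells (4.25%), 7 CD4 T cells, 4 regulatory T cells and 4 NK cells. The T cell cluster led by Cd8b1 and Ccl5 gave 54 of the CD4 T cells (5.49%). Nkg7, Gzmk and Gzmb were among its leading genes. The NK cluster gave 7 CD8 T cells, 1 CD4 T cell and 1 regulatory T cell. What these cells add to the levels of their classes was not tested. None of the 10 genes entered a gate, a marker list or the clustering. BPTES 1 and 2 and DMSO 1 and 2 held 291, 315, 353 and 406 CD8 T cells, 197, 216, 283 and 288 CD4 T cells, 32, 20, 44 and 72 regulatory T cells, and 114, 153, 83 and 40 NK cells. Median depth lay between 9503 and 13306 UMIs (unique molecular identifiers, counted RNA molecules) per cell in each class and library. Pairs of libraries shared between 90 and 114 cell barcodes. NK cells carried Ncr1 in 96.1 to 100% of cells and Cd3e in 0%, but Eomes, a factor of conventional NK cells, in only 14.0, 22.9, 21.7 and 37.5%. The class was mixed, as cells with and without a Gzma UMI, described further on, also differed in Eomes and Cxcr6, and the NK levels and fold changes are means over both kinds. Regulatory T cells carried Ikzf2 in 95.5 to 100%, Ctla4 in 85.0 to 97.7% and Cd4 in 65.0 to 88.6% of cells. CD4 T cells, gated without a Foxp3 UMI, carried Ikzf2 in 31.1 to 40.3% and Ctla4 in 44.9 to 57.6%. These 2 markers were thus shared by both classes.

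Each lymphocyte class carried its own combination of the 10 genes. Levels are given as CPM, the UMIs of a gene scaled to the total UMIs of its class in a library, and the mean ± SD is over the 4 libraries. Gzma was highest in NK cells, of which 33.1% held it, at 2390 ± 896 CPM, against 211 ± 113 in CD8 T cells and 2.63 ± 0.381 in CD4 T cells, with no overlap between libraries of these classes. Prf1 followed the same order, at 568 ± 153 CPM in NK cells, 108 ± 10.0 in CD8 T cells and 11.2 ± 1.92 in CD4 T cells. Gzmk had another order: CD8 T cells held 250 ± 40.6 CPM, CD4 T cells 89.2 ± 25.6 and NK cells 3.87 ± 3.08, again without overlap.

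Gzmb, Nkg7 and Fasl did not separate NK from CD8 T cells. Gzmb stood at 367 ± 106 CPM in NK and 241 ± 54.2 in CD8 T cells, Nkg7 at 1521 ± 239 and 1358 ± 185, and Fasl at 247 ± 29.2 and 236 ± 28.7, and in each case the library ranges overlapped. Ifng overlapped in 3 classes, with 252 ± 70.3 CPM in NK, 217 ± 34.6 in CD8 and 208 ± 36.5 in CD4 T cells, but was 21.1 ± 22.0 in regulatory T cells.

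Among the 4 classes Pdcd1 and Tox were highest in regulatory T cells. Pdcd1 reached 203 ± 54.2 CPM there, against 94.0 ± 23.0 in CD8 and 73.3 ± 18.3 in CD4 T cells, which overlapped each other, and 18.8 ± 5.05 in NK cells. The cells of the gamma delta T cluster outside the gates, named for T cells with the other receptor type, held 112 ± 60.4 CPM of Pdcd1, with 35.1% of 612 cells positive. Their level was 63.2 ± 11.0 CPM under BPTES and 162 ± 33.4 under DMSO, without overlap, a difference that was not tested. Only their highest library, a DMSO library at 185 CPM, passed the lowest of regulatory T cells (163 CPM). They held only 16.1 ± 31.4 CPM of Gzma and 6.96 ± 5.65 of Prf1. Tox stood at 1603 ± 283 CPM in regulatory T cells and at 734 ± 161, 682 ± 138 and 613 ± 128 in CD8 T, CD4 T and NK cells, whose ranges overlapped. Lag3 was low in all 4 classes, with means between 13.5 and 15.6 CPM.

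**Figure D1:**
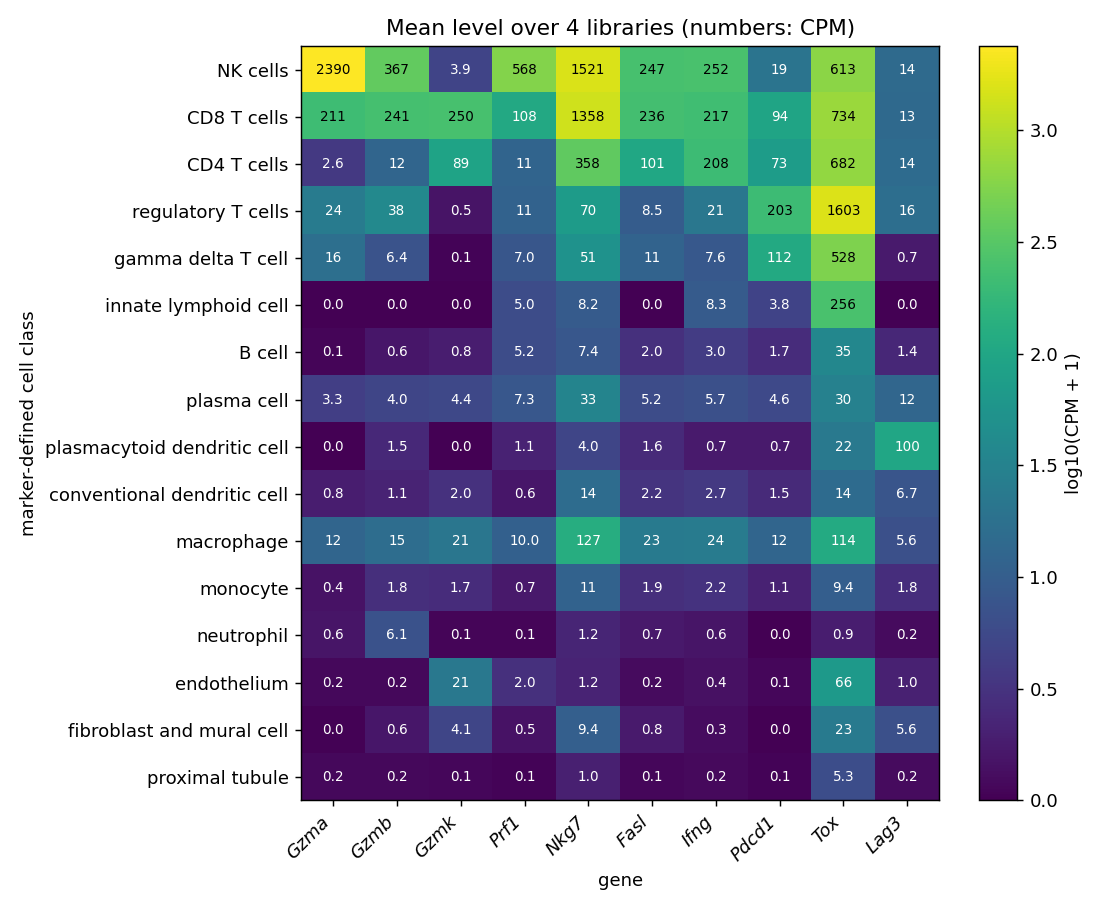
Mean CPM of each gene (columns) in 16 marker-defined cell classes (rows), averaged over 4 libraries, with the colour on a log10(CPM + 1) scale. Gzma and Prf1 are highest in NK cells, Gzmk in CD8 T cells, Pdcd1 and Tox in regulatory T cells, and Lag3 in plasmacytoid dendritic cells.

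Cells that should lack these transcripts gave the background. Proximal tubule cells, with median depths of 15022 to 17941 UMIs, held a UMI of Prf1 in 0.0613 to 0.221% of cells, of Gzma in 0.225 to 0.423% and of Pdcd1 in 0.0551 to 0.286%. The same shares were 75.2 to 90.0% (Prf1) and 31.3 to 37.5% (Gzma) in NK cells and 27.3 to 38.8% (Pdcd1) in CD8 T cells. Innate lymphoid cells, a lymphocyte class at 14580.5 to 16056 median UMIs, had 0 UMIs of Gzma, Gzmb, Gzmk, Fasl and Lag3 in 344 cells, which allows at most 3.78 CPM in the library with the fewest UMIs. Macrophages, at 15136 to 21159 median UMIs, gave a higher background, with a UMI of Prf1 in 10.6%, of Gzmk in 12.2%, of Ifng in 14.0%, of Pdcd1 in 9.23% and of Lag3 in 8.80% of 3782 cells. Nkg7 was found in 22.1%, Tox in 20.1%, Fasl in 17.0% and Gzmb in 6.37% of them. By share and against the macrophages, Gzmk in NK cells (2.31% of cells) and Prf1 in CD4 T cells (6.91%) lay at or below background. So did Ifng in regulatory T cells (5.36%) and Lag3 in CD4 T cells (7.32%). In regulatory T cells Nkg7 (10.7%), Fasl (5.95%), Prf1 (4.76%), Gzmb (4.17%) and Gzmk (1.19%) lay below background too. Pdcd1 in NK cells (11.0%) and Lag3 in CD8 T cells (12%) lay little above it. Macrophages were deeper, and with cells thinned to 2000 UMIs Gzmk in NK cells stayed below them in every library. So did Gzmk (0% against 1.62 to 3.63%) and Nkg7 (2.27 to 6.25% against 8.29 to 12.8%) in regulatory T cells. Lag3 then lay above macrophages (0.351 to 1.14%) in CD4 T cells (1.39 to 2.45%) and in CD8 T cells (1.27 to 4.83%). The ranges overlapped for Prf1 in CD4 T cells, for Pdcd1 in NK cells and for Ifng, Gzmb, Prf1 and Fasl in regulatory T cells. Gzma was found in 2.14% of macrophages and in 2.13% of CD4 T cells.

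UMIs of Lag3, Tox and Gzmk were also found outside lymphocytes. Lag3 reached 99.6 ± 33.2 CPM in plasmacytoid dendritic cells, where 77.8% of 99 cells had a UMI, against 12% of CD8 T cells. Their median depth was 20106 to 51962.5 UMIs, against 11134 to 12004.5 in CD8 T cells. DMSO 2 held 2 of those cells, so their groups were not compared. Tox was found in 41.4% of 278 intercalated cells of the collecting duct (68.8 ± 14.8 CPM, at median depths of 24862.5 to 28663.5 UMIs), in 26.5% of endothelial cells (65.9 ± 10.0 CPM) and in 20.1% of macrophages (114 ± 31.4 CPM). The macrophage share lay beside the 22.1% for Nkg7 in the same cells, given above as background. Whether macrophages express Tox was not tested. UMIs assigned to Gzmk were found in 12.6% of 3576 endothelial cells (21.4 ± 4.50 CPM). In the 4 libraries 22.8, 18.8, 16.5 and 18.8% of endothelial cells with a UMI of Esm1, an endothelial gene, also held Gzmk, against 1.45, 0, 0 and 0.820% of those without Esm1. Median depths were 10908, 10761.5, 11578 and 13099 UMIs with Esm1 and 12597, 12049, 12341 and 13359.5 without. In the GENCODE annotation Esm1 lies within the span of Gzmk on the opposite strand. That span extends past the RefSeq start used for the Gzmk window. Of 449 endothelial cells with Gzmk, 3 held Cd3e and 10 held Nkg7, whereas of 954 CD8 T cells with Gzmk, 945 held Cd3e and 953 held Nkg7. Reads of overlapping genes can be told apart only where the counting used strand, which the sources used here do not state.

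NK cells were the one class in which a member passed the test, and that gene was Prf1. Prf1 counted 605 and 781 UMIs in the BPTES libraries (432 and 441 CPM) and 762 and 356 UMIs in the DMSO libraries (716 and 685 CPM). Both BPTES libraries lay below both DMSO libraries, with little spread inside either group. The means were 436 ± 6.32 and 700 ± 21.4 CPM (SD, n = 2 each). The fall was 0.71 on the log2 scale: log2 fold change -0.71, SE 0.11, adjusted p 0.00944 (edgeR's quasi-likelihood test on summed UMIs with Benjamini-Hochberg adjustment over all genes tested). With any 1 of the 4 libraries left out it was -0.68 to -0.74. Where the gates were applied to all cells with a UMI of Ptprc, the gene of CD45, and not only inside the lymphocyte clusters, the fold change was -0.40 and not called (adjusted p 0.491). Of 8989 genes tested in NK cells, 38 (0.423%) were called, 6 higher (0.0667%) and 32 lower (0.356%) under BPTES, and DESeq2 called Prf1 as well (-0.70, adjusted p 0.000997).

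The other granule genes of NK cells had lower values under BPTES and were not called. Gzma stood at 1991 and 1497 CPM under BPTES and at 2482 and 3592 under DMSO, a log2 fold change of -0.83 (SE 0.20, edgeR adjusted p 0.256). Gzmb was at 410 and 208 CPM under BPTES, 1 library near and 1 well below the 419 and 431 CPM under DMSO (-0.50, SE 0.35). Nkg7 was at 1519 and 1216 CPM against 1549 and 1800 (-0.32, SE 0.13). Its BPTES and DMSO values were close in the first library of each group. Fasl was at 215 and 229 CPM against 270 and 273 (-0.32, SE 0.12).

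Ifng came nearest to the threshold after Prf1, at 206 and 190 CPM under BPTES and 267 and 345 under DMSO (-0.64, SE 0.15, edgeR adjusted p 0.0996). Pdcd1 (-0.14, SE 0.38), Tox (-0.24, SE 0.17) and Lag3 (-0.83, SE 0.49) overlapped between the groups. Gzmk had 18 UMIs in all NK cells and was not tested. All 9 members tested in NK cells had negative fold changes, with a median of -0.50 against -0.0046 over all genes, and 50.7% of all genes tested were lower. In 6 of the 9 the groups did not overlap, all lower, against 39.8% of all genes without overlap and 20.4% without overlap and lower. An unadjusted edgeR p under 0.05 was found for 5 of the 9, against 9.56% of all genes. In fits on 3 libraries Gzma was -1.04 without BPTES 1, -0.65 without BPTES 2, -1.09 without DMSO 1 and -0.52 without DMSO 2. Each such fit leaves a lone library in 1 group. In such fits Gzmb was -1.04 without BPTES 1, Nkg7 -0.45 without DMSO 1 and Tox -0.49 without DMSO 2.

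**Figure D2:**
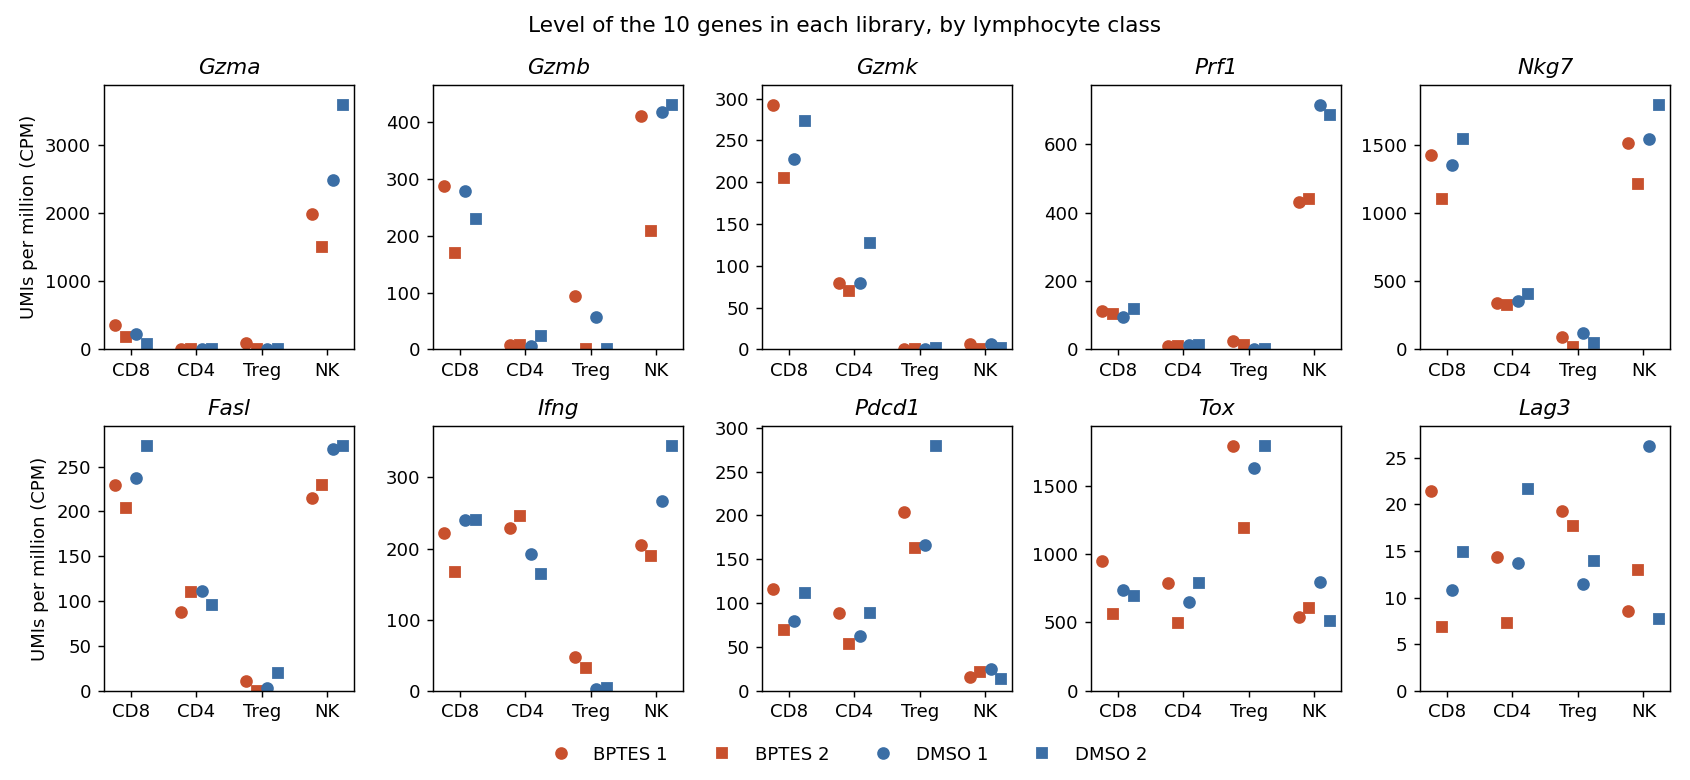
CPM of each of the 10 genes (panels) in CD8 T, CD4 T, regulatory T (Treg) and NK cells, with 1 point per library, red for BPTES and blue for DMSO, on linear axes that start at 0. In NK cells the Prf1 values under BPTES (432 and 441 CPM) lie below those under DMSO (716 and 685 CPM).

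Markers of other cells moved with the groups in the NK sums. The summed level of 6 macrophage markers was 27.8 and 21.4 CPM under BPTES and 127 and 61.6 under DMSO, with 0 or 1 of the 6 at 0 in each library, and 5 plasmacytoid dendritic cell markers summed to 47.8 and 59.8 CPM against 111 and 208. For 7 endothelial markers the sums were 95.6 and 114 CPM against 178 and 162. The 6 proximal tubule markers lay the other way, at 251 and 153 CPM under BPTES and 101 and 80.8 under DMSO. Igkc, the immunoglobulin kappa chain, was found in 98.2 and 100% against 63.9 and 47.5% of NK cells. Of T cell genes, Cd3e was kept at 0 by the gate, Cd8a, which the gate did not use, was at 0 in all 4 libraries, and Trbc2, a constant segment of the T cell receptor, was found in 61.4, 66.0, 56.6 and 50.0% of NK cells. The Eomes share given above was lowest in BPTES 1 and highest in DMSO 2. A set of 10 immediate early genes, which respond to stimulation and to tissue digestion, summed to 3044 and 2915 CPM under BPTES and 4165 and 4025 under DMSO in NK cells. Their part in the Prf1 result was not tested.

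The share of NK cells with a Prf1 UMI differed less than the level. It was 83.3% (exact 95% Clopper-Pearson interval 75.2 to 89.7) and 75.2% (67.5 to 81.8) under BPTES and 85.5% (76.1 to 92.3) and 90.0% (76.3 to 97.2) under DMSO. These intervals cover counting error only. Cells with at least 2000 UMIs (109 and 143 under BPTES, 77 and 40 under DMSO) were also thinned to that number. Their shares were 44.0 and 49.0% against 53.2 and 60.0%, without overlap. The exact two-sided permutation test gave 0.333, the smallest p that 2 libraries against 2 allow. A cell with Prf1 held on average 6.37 and 6.79 of its UMIs under BPTES and 10.7 and 9.89 under DMSO. The median was 4 and 5 UMIs in both groups, so the typical positive cell did not differ. The 10 highest cells held 38.8 and 28.2% of Prf1 UMIs under BPTES and 53.3 and 68.8% under DMSO. Positive cells numbered 95 and 115 against 71 and 36. For Gzma, the share of positive NK cells was 35.1 and 31.4% under BPTES and 31.3 and 37.5% under DMSO, so the groups overlapped. A positive cell held on average 69.8 and 55.3 Gzma UMIs under BPTES and 102 and 124 under DMSO. Gzma RNA was concentrated in few cells: the 10 highest NK cells of a library held 55.6 to 93.0% of its Gzma UMIs.

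NK cells with and without a Gzma UMI were read apart, a split chosen after the values were seen. Cells with Gzma numbered 40, 48, 26 and 15 in BPTES 1, BPTES 2, DMSO 1 and DMSO 2, and cells without it 74, 105, 57 and 25. The 2 kinds differed in other genes too: in every library Eomes was between 157 and 300 CPM with Gzma and between 1.18 and 36.9 without it, and Cxcr6, a receptor of tissue-resident lymphocytes, between 0 and 154 CPM with Gzma and between 479 and 572 without. In cells with Gzma, Prf1 stood at 731 and 731 CPM under BPTES and 1660 and 1225 under DMSO. In cells without Gzma it stood at 237 and 279 CPM under BPTES and 254 and 285 under DMSO.

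The Prf1 fold change was -1.05 (SE 0.21, edgeR adjusted p 0.0571) in NK cells with Gzma and -0.05 (SE 0.16, adjusted p 0.972) in those without. The difference between them was -1.0 (SE 0.26) and did not pass over all genes (edgeR adjusted p 0.309 for the interaction). Among all genes, 23 of 6416 (0.358%) were called in cells with Gzma, 22 of 8076 (0.272%) in cells without it and 1 of 7953 (0.0126%) for the interaction, with 0 members among them. Without DMSO 1 the fold change in cells with Gzma was -0.80, and without DMSO 2 it was -1.28. In cells without Gzma it was 0.069 without BPTES 1, -0.18 without BPTES 2, -0.17 without DMSO 1 and 0.036 without DMSO 2, so its sign changed with the library left out. Tox ran the other way between the kinds of cell, at 145 to 317 CPM with Gzma and 724 to 1038 without.

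**Figure D3:**
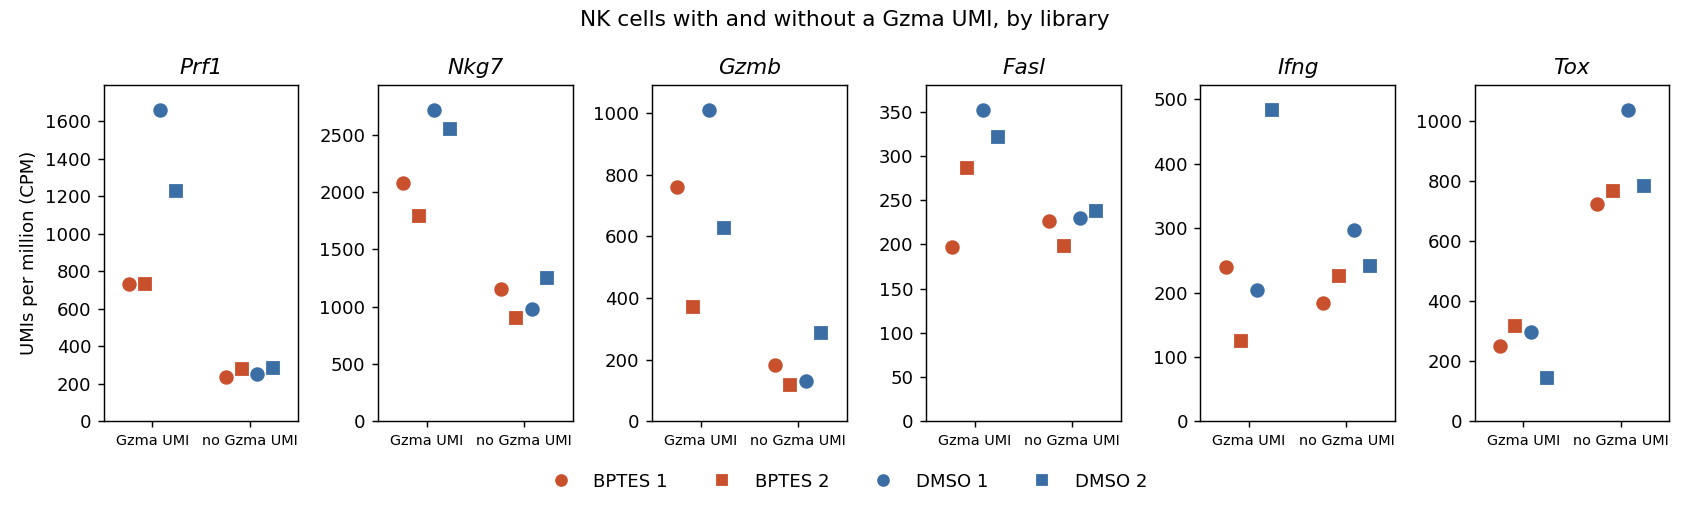
CPM of 6 genes (panels) in NK cells with and without a Gzma UMI, 1 point per library, red for BPTES and blue for DMSO, on linear axes from 0. Prf1 separates by group in the cells with Gzma (731 and 731 against 1660 and 1225 CPM) and lies between 237 and 285 CPM in the cells without it.

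In CD8 T cells none of the 10 members passed the test. Of 10986 genes, edgeR called 11 (0.100%), 3 higher (0.0273%) and 8 lower (0.0728%). The higher ones were Igkc, Jchain and Sesn1. The lower ones were Apoe, C1qa, Cd74, H2-Aa, H2-Ab1, H2-Eb1, Cxcl10 and Bhlhe40. An unadjusted p under 0.05 was found for 2 of the 10 members and 9.48% of all genes, and DESeq2 called 0 members. The median fold change of the members was -0.04 against -0.0018 for all genes, 6 of 10 were lower (50.3% of all genes), and 2 of 10 (Fasl and Ifng, both lower) did not overlap between groups, against 41.1% of all genes without overlap and 20.9% without overlap and lower. Gzmk, at 293 and 205 CPM under BPTES and 227 and 274 under DMSO, gave a fold change of -0.02 (SE 0.18). Prf1, at 113 and 105 CPM against 95.3 and 118, gave 0.03 (SE 0.12).

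The exhaustion genes of CD8 T cells differed more between the libraries of a group than between the groups. Pdcd1 stood at 116 and 69.7 CPM under BPTES and 79.1 and 111 under DMSO (-0.06, SE 0.30), Tox at 947 and 559 against 738 and 690 (0.07, SE 0.25), and Lag3 at 21.4 and 6.80 against 10.8 and 14.9 (0.09, SE 0.54). BPTES 1 was the highest and BPTES 2 the lowest library for each of the 3 genes. Tox was lower without BPTES 1 (-0.33) and higher without BPTES 2 (0.38), so its direction changed with the library left out. Without BPTES 1, Gzmb (-0.56), Nkg7 (-0.37) and Ifng (-0.50) were also lower.

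Fasl in CD8 T cells stood at 229 and 204 CPM under BPTES and 237 and 273 under DMSO (-0.24, SE 0.10, edgeR adjusted p 0.496). Ifng stood at 222 and 167 CPM against 240 and 240 (-0.31, SE 0.12, adjusted p 0.448). Gzma varied widely, at 357 and 176 CPM against 224 and 86.0 (0.78, SE 0.76), and it was carried by 54, 52, 52 and 44 cells. These were 18.6 and 16.5% of CD8 T cells under BPTES and 14.7 and 10.8% under DMSO, and after thinning 14.1 and 11.4% against 9.40 and 5.19%. The shares did not overlap, unlike the CPM, and the exact two-sided permutation test on the thinned shares gave 0.333, the smallest p possible. The 10 highest cells held 59.9 to 82.7% of a library's Gzma UMIs. The macrophage markers summed to 33.3 and 45.4 CPM in CD8 T cells under BPTES and to 90.4 and 128 under DMSO. Igkc was found in 97.6 and 98.7% against 64.6 and 65.3% of these cells. The 10 immediate early genes named above summed to 2837 and 2281 CPM against 2869 and 2895. Their part in these values was not tested.

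Within CD8 T cells the members fell into combinations that recurred in every library. Cells were thinned to 2000 UMIs, and those with a Pdcd1 UMI (47, 35, 47 and 63 cells) were compared with those without (243, 280, 304 and 342). Tox was found in 93.6, 82.9, 85.1 and 81.0% of cells with Pdcd1 and in 44.4, 39.3, 35.5 and 42.1% of cells without. Gzmk was found in 46.8, 42.9, 57.4 and 44.4% with Pdcd1 against 33.3, 32.5, 35.9 and 33.0% without, and Lag3 in 19.1, 5.71, 6.38 and 9.52% against 2.06, 0.714, 2.63 and 1.75%. The order was the same in 4 of 4 libraries for these 3 genes. It was also the same in all 4 for Nkg7 (91.5, 88.6, 93.6 and 92.1% with Pdcd1 against 82.7, 81.1, 85.2 and 88.6% without) and Fasl (38.3, 31.4, 48.9 and 47.6% against 35.4, 26.4, 38.2 and 33.9%), and in 3 of 4 for Ifng.

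Gzma and Gzmb had the opposite order. Gzma was found in 2.13, 2.86, 0 and 0% of CD8 T cells with Pdcd1 and in 16.5, 12.5, 10.9 and 6.14% of those without, and Gzmb in 14.9, 8.57, 14.9 and 17.5% against 31.3, 21.4, 30.3 and 22.8%. The counts of 0 in 47 and 63 cells allow up to 6.38 and 4.76% of cells with a UMI at this thinned depth, which does not limit the share of cells that express the gene. Prf1 was higher with Pdcd1 in 2 libraries and lower in 2. Split by Tox instead, Gzmk was in 43.9 to 51.4% of cells with Tox and 23.2 to 29.6% without, and Gzmb in 9.35 to 17.1% and 28.4 to 41.3%. Without thinning, Gzmk, Pdcd1 and Tox occurred together in 30.9, 23.5, 23.8 and 29.1% of CD8 T cells, and the groups overlapped. Cells of 1 library are not replicates, and these shares are a description.

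**Figure D4:**
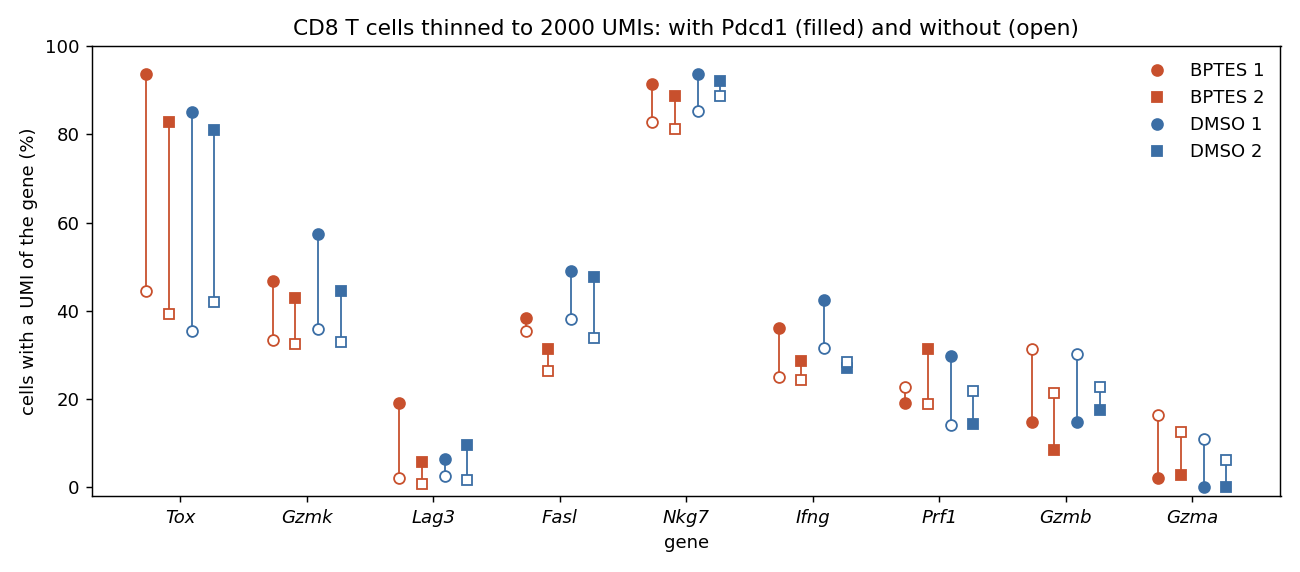
Share of CD8 T cells with a UMI of each gene after thinning to 2000 UMIs per cell, for cells with a Pdcd1 UMI (filled) and without (open), joined by a line for each library, red for BPTES and blue for DMSO. Tox, Gzmk, Lag3, Nkg7 and Fasl are higher and Gzma and Gzmb lower in cells with Pdcd1 in all 4 libraries.

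CD4 T cells held the granule genes at lower levels than CD8 T cells, and no member was among the 33 of 10444 genes (0.316%) that edgeR called, 17 higher (0.163%) and 16 lower (0.153%). DESeq2 also called 0 members, and an unadjusted edgeR p under 0.05 was found for 3 of 9 members and 10.1% of all genes. Ifng was the only member with a positive fold change of the 9 tested. It stood at 229 and 245 CPM under BPTES and 192 and 164 under DMSO, without overlap (0.40, SE 0.10, edgeR adjusted p 0.154). Single cells weighed on these values. The highest cell held 122 of 527 Ifng UMIs in BPTES 1 and 37 of 607 in BPTES 2. It held 112 of 618 in DMSO 1 and 30 of 598 in DMSO 2. The Ifng fold change was 0.53 without DMSO 1 and 0.46 without BPTES 1. In CD8 T and NK cells, as given above, the Ifng values lay the other way.

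Of the 9 members tested in CD4 T cells, 4 did not overlap between groups (Ifng, higher, and Nkg7, Prf1 and Gzmk, lower), against 40.7% of all genes without overlap and 21.4% without overlap and lower, and the median fold change was -0.21 against -0.0022. Of the 9, 8 were lower, against 50.4% of all genes. Nkg7 stood at 342 and 326 CPM under BPTES and 357 and 409 under DMSO (-0.21, SE 0.09, edgeR adjusted p 0.405). Gzmk stood at 79.9 and 69.9 CPM against 80.0 and 127 (-0.49, SE 0.22, adjusted p 0.543). The Gzmk fold change was -0.77 without DMSO 1 and -0.12 without DMSO 2. Lag3 had 33 and 18 UMIs against 44 and 79 (-0.75, SE 0.33, adjusted p 0.474). Gzmb had 17, 19 and 22 UMIs in 3 libraries and 89 in DMSO 2, and its fold change was -1.70 without DMSO 1 and 0.11 without DMSO 2. Tox was lower without BPTES 1 (-0.53). Gzma had 7 to 9 UMIs per library and was not tested.

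Regulatory T cells carried Pdcd1 and Tox and few UMIs of the granule genes. Pdcd1 was found in 43.8, 45, 56.8 and 73.6% of cells and stood at 204 and 163 CPM under BPTES and 167 and 279 under DMSO (-0.27, SE 0.29). Tox was found in 93.8, 90.0, 93.2 and 100% of cells (-0.18, SE 0.25). Gzmk had 0 UMIs in BPTES 1, BPTES 2 and DMSO 1, which allows at most 8.29, 10.6 and 4.90 CPM, and 2 UMIs in DMSO 2. All 35 Gzma UMIs came from 1 cell of BPTES 1, and the same cell held the 34 Gzmb UMIs of that library. Gzmb also had 35 UMIs in 6 of the 44 cells of DMSO 1, 28 of them in 1 cell, and 0 in the other libraries. Nkg7 stood at 69.5 ± 44.0 CPM over the 4 libraries and was found in 4, 1, 2 and 11 cells. Its highest cell held 30 of 33 UMIs in BPTES 1 and all 6 in BPTES 2. In DMSO 1 that cell held 69 of 73 and in DMSO 2 it held 14 of 47.

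Gzma, Gzmk, Prf1, Fasl and Lag3 did not pass the low-count filter in regulatory T cells. Without that filter Gzma, whose UMIs came from the 1 cell in BPTES 1, was called (7.81, edgeR adjusted p 0.0129). With BPTES 2 left out its fold change was 9.0. These fitted values set 1 cell against DMSO libraries at 0 UMIs and are no bound. Of the other 5 members, 0 were called, against 2 of 6784 genes (0.0295%), and 1 did not overlap between groups, against 37.9% of all genes. DESeq2 called 0 members, 1 member had an unadjusted edgeR p under 0.05 (7.56% of all genes), and 3 of the 5 were lower (50.4% of all genes). The member without overlap was Ifng. BPTES 1 and BPTES 2 held 17 and 9 of its UMIs in 3 and 2 cells, and DMSO 1 and DMSO 2 held 1 and 4 in 1 and 3 cells. The fitted fold change was 3.64 (SE 0.73, edgeR adjusted p 0.158). Without BPTES 2 it was 3.87. In the regulatory T cell sums 7 NK markers stood at 157 and 0 CPM under BPTES and 0 and 24.8 under DMSO, 4 gamma delta T markers at 55.2 and 293 against 0 and 38.7, and Igkc at 768 and 576 against 114 and 109. All 7 NK markers were at 0 in BPTES 2 and DMSO 1, and all 4 gamma delta T markers in DMSO 1. Their part in the Ifng value was not tested.

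**Figure D5:**
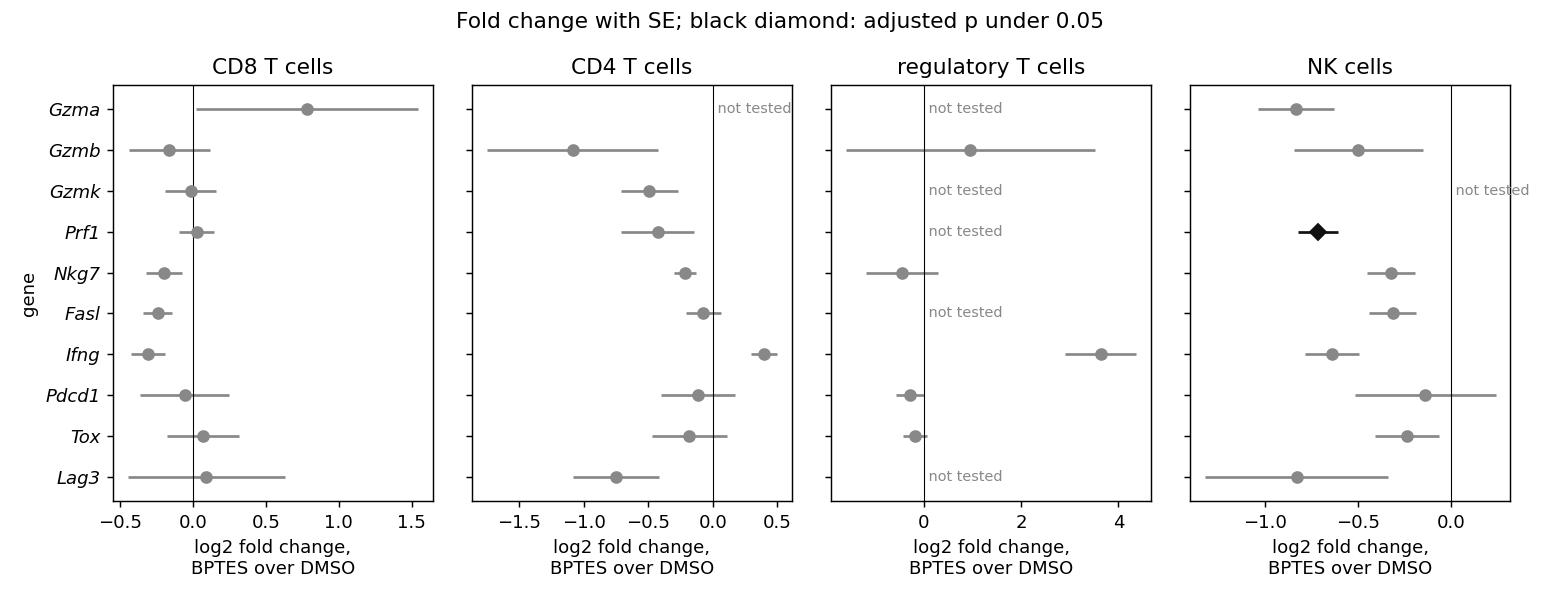
Log2 fold change (BPTES over DMSO) with its SE for each gene in each class, from the edgeR fit across all genes, with the black diamond for an adjusted p under 0.05 and x axes that differ between panels. Prf1 in NK cells (-0.71) is the marked value, and the fold changes of the 9 genes tested in NK cells are all below 0.

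Differences between classes in the response were tested as interactions with library as a block. Between CD8 and CD4 T cells, 0 of 11364 genes (0%) passed in edgeR and 532 had an unadjusted p under 0.05. Ifng had the smallest p of the members, with a fold change lower by 0.72 in CD8 than in CD4 T cells (difference -0.72, SE 0.16, edgeR adjusted p 0.593). Between NK and CD8 T cells, a comparison added after the values were seen, 12 of 11025 genes passed (0.109%) and no member did. Without BPTES 1, BPTES 2, DMSO 1 or DMSO 2, 59, 42, 102 and 44 genes passed. The Prf1 difference was -0.74 (SE 0.15, edgeR adjusted p 0.0801), so with all 4 libraries the response of Prf1 in NK cells was not shown to differ from that in CD8 T cells. The Prf1 difference was -0.68 without BPTES 1, -0.80 without BPTES 2, -0.55 without DMSO 1 and -0.93 without DMSO 2. The Gzma difference was -1.62 (SE 0.95, edgeR adjusted p 0.922). It was -1.33 without BPTES 1, -1.92 without BPTES 2, -2.62 without DMSO 1 and -0.72 without DMSO 2, so its size depended on the library left out.

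Other genes of the same pathways were read from lists chosen with earlier results of these data known. Of 22 further cytotoxic and effector genes, 18 were tested in NK cells and 0 passed, 13 of them lower (median -0.14 against -0.0046 for all genes, of which 50.7% were lower). Xcl1, a chemokine that draws dendritic cells and was chosen after its values were seen, came closest, at 1571 and 1518 CPM (TMM-scaled) under BPTES against 2365 and 2025 under DMSO (-0.51, SE 0.11, edgeR adjusted p 0.0806). In CD8 T cells 0 of 18 passed and 15 were lower (median -0.18, with 50.3% of all genes lower). In regulatory T cells 0 of 12 passed, with 5 lower and 7 higher (median 0.06, with 50.4% of all genes lower). In CD4 T cells 1 of 15 passed, against 0.316% of all genes (0.153% lower), with 11 lower (median -0.12, with 50.4% of all genes lower). That gene was Ccl4, a chemokine of activated lymphocytes, with 86 and 129 UMIs in the BPTES libraries against 404 and 480 in the others (-1.54, SE 0.15, edgeR adjusted p 0.000736). It was not called with predicted doublets kept (-1.07).

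Of 15 inhibitory receptors and exhaustion-linked regulators, 0 of 15 tested passed in CD8 T cells, 2 of 15 in CD4 T cells, 0 of 13 in regulatory T cells and 1 of 11 in NK cells, all lower under BPTES. Over all genes 0.316% were called in CD4 T cells (0.153% lower) and 0.423% in NK cells (0.356% lower). Nr4a2, a nuclear receptor induced by antigen receptor signalling, fell by 0.86 in CD4 T cells (-0.86, SE 0.10, edgeR adjusted p 0.00194) and by 1.38 in NK cells (-1.38, SE 0.17, adjusted p 0.00299). Nr4a2 is also an immediate early gene, and in NK cells the summed immediate early level given above was lower under BPTES, with Dusp1 (-1.34, SE 0.18, edgeR adjusted p 0.00323) and Egr1 (-1.56, SE 0.28, adjusted p 0.0287), named after their values were seen, among the NK calls. In CD4 T cells the same set was not lower, with sums of 4142 and 3922 CPM under BPTES and 3920 and 3854 under DMSO. The part of that set in the Nr4a2 result was not tested. Havcr2, which encodes the inhibitory receptor TIM-3, counted 2 and 3 UMIs in the BPTES libraries against 22 and 57 in the DMSO libraries in CD4 T cells (-3.40, SE 0.61, edgeR adjusted p 0.0435), and was not called without DMSO 2 (-2.68), with predicted doublets kept (-1.63), with a gate of 2 UMIs (-3.38) or in DESeq2 (-3.44). Of 9 transcription factors of effector lymphocytes, 1 of 9 tested passed in CD8 T and in NK cells, 0 of 9 in CD4 T and 0 of 8 in regulatory T cells. Over all genes 0.100% were called in CD8 T cells (0.0728% lower). In both classes the gene was Bhlhe40, which supports cytokine production. It fell in CD8 T cells (-0.69, SE 0.10, edgeR adjusted p 0.0300) and NK cells (-1.12, SE 0.15, adjusted p 0.00431). In CD8 T cells it was not called without DMSO 2 (-0.57) or with predicted doublets kept (-0.60). In the fit of gates applied to all cells with a Ptprc UMI, none of Ccl4, Havcr2, Nr4a2, Il12rb2 and, in NK cells, Bhlhe40 was called. The macrophage markers given above were also lower under BPTES in CD8 T and NK cells, and their part in the Bhlhe40 values was not tested.

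Of 10 cytokine receptors, 1 of 10 tested passed in CD4 T cells (0.316% of all genes, 0.163% higher), 0 of 10 in CD8 T, 0 of 9 in regulatory T and 0 of 9 in NK cells. Il12rb2, the signalling chain of the receptor for interleukin 12, rose in CD4 T cells (105 and 127 UMIs in the DMSO libraries, 154 and 196 in the fewer CD4 T cells of BPTES), with a fold change of 1.10 (SE 0.15, edgeR adjusted p 0.00635). Of 10 naive and central memory genes, 0 passed in any class. In CD8 T cells 8 were higher and 2 lower (median 0.30 against -0.0018 for all genes), in CD4 T cells 2 were higher and 8 lower (median -0.03), in regulatory T cells 5 and 5, and in NK cells 4 and 4 of 8 tested.

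Markers of other cells moved with the groups in the CD4 T cell sums as well. The 6 plasma cell markers summed to 94.2 and 133 CPM under BPTES and 49.8 and 56.5 under DMSO, with 0 to 2 of the 6 at 0, and Igkc was found in 95.9 and 99.5% against 62.5 and 63.9% of CD4 T cells. Igkc (2.21, SE 0.14, edgeR adjusted p 0.000736) and Jchain, the joining chain of secreted antibody (2.99, SE 0.31, adjusted p 0.00164), were themselves among the CD4 calls. The 7 NK markers summed to 24.7 and 14.9 CPM against 0.622 and 4.39, with 3 to 6 of the 7 at 0. Their part in the CD4 T cell values was not tested.

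Genes most like Nkg7 and Pdcd1 over the 16 sums of class and library were found by Pearson's r of log2 CPM. These sums share libraries, and the r values describe the order of the classes with no test. Nkg7 was most like Ctsw (r 0.98), Ppp3cc (0.97) and Runx3 (0.97), and Pdcd1 most like Bmyc (0.94), Arhgef12 (0.94) and 2010111I01Rik (0.93).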

How the data were processed

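Single-cell RNA was measured in 4 libraries from 10x Genomics 3′ kits. The authors deposited unnormalized UMI counts for each gene in each barcode, made with Cell Ranger 8.0.1 on mm10, per the submitters' processing notes. Whether counting used strand is not given in the sources used here. From 76278 barcodes, those with at least 500 UMIs, at least 300 genes and at most 50% mitochondrial UMIs were kept, and 3867 with the highest Scrublet scores, in a number that grows with the barcodes of a library, were removed as predicted doublets, which left 46738. The libraries held 249881074 to 297947661 UMIs.

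Cells were clustered without the 10 genes (scanpy 1.11.5, 3000 variable genes, 40 principal components, Leiden resolution 1, 52 clusters). Gates required at least 1 UMI of the defining genes. CD8 T cells had a Cd3 gene and Cd8a or Cd8b1 without Cd4 or Foxp3. CD4 T cells had a Cd3 gene and Cd4 without Cd8a, Cd8b1 or Foxp3. Regulatory T cells had a Cd3 gene and Foxp3 without Cd8a or Cd8b1. NK cells had Ncr1 or Klrb1c and no Cd3 gene.

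UMIs were summed per library and class and tested with edgeR 4.0.16 (quasi-likelihood, TMM scaling, low-count filter, Benjamini-Hochberg threshold 0.05, R 4.3.3), with DESeq2 1.42.0 as an alternative, and the code was tested on simulated data. Levels of the 10 genes are CPM on all UMIs of a class. CPM of list genes, where said, are TMM-scaled. Shares were also taken after thinning each cell with at least 2000 UMIs to that number, with shallower cells left out. The text names the 10 genes in each class, list genes past the threshold (up to 4 per list and class) and, for Nkg7, Gzmk and Pdcd1, the 3 most alike genes among those with at least 10 UMIs in at least 4 of 16 sums (those for Gzmk are not reported here). The genes, lists and classes were chosen with earlier results of these data known. The NK split by Gzma, the comparison of NK with CD8 T cells and the addition of 2 unnamed clusters were chosen after seeing the data. Alternatives were another scaling, no low-count filter, a replicate block, 3 libraries, at most 25% mitochondrial UMIs, doublets kept, a gate of 2 UMIs and gates on all cells with a Ptprc UMI, not only those of the named clusters.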

Additional observations from a re-analysis of the deposited data

How the results depend on the processing

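Prf1 in NK cells was called in 12 of 13 alternatives. Of 428 values of the 10 genes, 362 kept direction and call, 38 reversed (26 of them on leaving out a library), 27 became called and 1 lost its call. The cause was not tested. Counts of called genes moved with the fit. Without the low-count filter 284 genes were called in CD8 T, 291 in CD4 T, 95 in regulatory T and 157 in NK cells and 65 for the CD8 and CD4 interaction, and DESeq2 called 24 in CD8 and 17 in CD4 T cells. With predicted doublets kept the counts were 1 in CD8 T, 0 in regulatory T and 24 in NK cells. A gate of 2 UMIs gave 14 in CD4 T cells, and gates on all cells with a Ptprc UMI, inside and outside the named clusters, gave 43, 2, 1 and 5 in CD8 T, CD4 T, regulatory T and NK cells. Adding the unnamed clusters gave 17 in CD8 T cells.

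Leaving out a library gave 5 to 552 calls in CD8 T, 115 to 210 in CD4 T, 28 to 92 in regulatory T and 87 to 196 in NK cells and 1 to 36 for the interaction of CD8 and CD4 T cells, where the lone library was assumed to vary like the other group. Members that changed sign ranged, in CD8 T cells, over -0.13 to 0.20 (Prf1), -0.33 to 0.38 (Tox), -0.91 to 0.69 (Lag3), -0.56 to 0.15 (Gzmb), -0.27 to 0.19 (Gzmk) and -0.44 to 0.24 (Pdcd1). In CD4 T cells they ranged over -0.26 to 0.094 (Fasl), -0.51 to 0.20 (Pdcd1), -0.53 to 0.10 (Tox) and -1.70 to 0.11 (Gzmb). In regulatory T cells they ranged over -7.03 to 7.75 (Gzmb), -1.87 to 0.32 (Nkg7), -0.48 to 0.068 (Tox) and -0.59 to 0.14 (Pdcd1), and in NK cells over -0.39 to 0.43 (Pdcd1), -0.49 to 0.11 (Tox) and -1.27 to 0.45 (Lag3).

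With the unnamed clusters added, CD8 T cells had Prf1 -0.067, Tox -0.0097 and Lag3 -0.044, and CD4 T cells Prf1 0.0061 and Fasl 0.056. With doublets kept, Fasl was 0.086 in CD4 T cells. With the gates on all such cells, CD4 T cells had Prf1 0.28, Nkg7 0.14, Fasl 0.20 and Havcr2 0.13, and NK cells Fasl 0.029 and Pdcd1 0.42. The replicate block gave 56 calls in CD8 T, 64 in CD4 T, 64 in regulatory T and 121 in NK cells, with Lag3 at -0.0054 in CD8 T cells. Under the block Gzma in CD8 T cells (0.84), Gzma (-0.82) and Ifng (-0.64) in NK cells and Ifng in regulatory T cells (3.61) were called. Same-numbered libraries share only a number in the labels, and their deviations correlated at 0.12, 0.03, 0.13 and 0.07 in the 4 classes.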

Other observations

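Ligands of these receptors were read in the same libraries. Cd274, which encodes the PD-1 ligand PD-L1, stood at 289 to 382 CPM in neutrophils, 195 to 299 in B cells and 152 to 187 in monocytes over the 4 libraries, and at 91.7 to 116 in CD4 T cells. In conventional dendritic cells it stood at 35.8 and 37.0 CPM under BPTES and 97.6 and 84.4 under DMSO, a difference that was not tested. Fas, the receptor of the Fasl product, stood at 148 to 173 CPM in neutrophils and 147 to 165 in endothelium, against 22.2 to 28.2 in CD8 T cells. Regulatory T cells held 84.8 to 168 CPM of Cd274 and 49.5 to 69.1 of Fas.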
